A study of Mus musculus with 43 samples.

Results

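The 10 genes described here mark macrophages of the brain's borders, monocytes and granulocytes, and were chosen by name among the 55416 genes counted in each library. They serve as a measure of cells with CD45 other than microglia in microglia libraries. Mrc1, Cd163, Lyve1, F13a1, Pf4 and Ms4a7 are the 6 border macrophage genes, Ccr2 and Ly6c2 the 2 monocyte genes, and S100a8 and S100a9 the 2 granulocyte genes. All 10 were found in the count files, and 9 passed the filter on low counts in microglia libraries, with Ly6c2 below it.

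Border macrophages live in the meninges, in the perivascular space and in the choroid plexus, where they take up material with scavenger and lectin receptors. They carry CD45 on their surface, as microglia and circulating white blood cells do, so a plate coated with an antibody against CD45 can bind all of them. Classical monocytes leave the bone marrow through the chemokine receptor CCR2 and carry Ly6C, while neutrophils store large amounts of the S100A8 and S100A9 proteins in their cytoplasm.

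The study asked whether lymphocytes shape glial transcriptomes, and sequenced 43 libraries, each of 1 cell type from the cerebral cortex of 1 of 12 mice in 6 littermate pairs, aged 3 months. Rag2-/- mice (B6.Cg-Rag2tm1.1Cgn/J), which form no mature T or B lymphocytes, were compared with immunocompetent littermates that were Rag2+/- in pairs 1, 2, 3 and 5 and Rag2+/+ in pairs 4 and 6. Both mice of pairs 1, 3 and 4 and the control of pair 6 were male, and the others were female. Mice were perfused with saline and 1 suspension per mouse was passed over 3 plates with anti-CD45 (microglia), then over plates for OPCs (PDGFRα), oligodendrocytes (GalC) and astrocytes (HepaCAM). There were 6 control and 6 Rag2-/- libraries of microglia and of astrocytes, 6 and 5 of OPCs, and 4 and 4 of oligodendrocytes. All libraries of a cell type were sequenced on the same lane, so the lane cannot be told apart from the cell type. Libraries are named below by genotype and pair, such as Rag2-/- 5.

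Libraries held 6499417 to 23118497 read pairs counted on genes (median 10447042), and values are CPM, each count divided by the total of its library and scaled to 1000000. The mitochondrial genome took 6.75% to 60.1% of them. Iftap, a gene that overlaps Rag2, had 14 to 208 counts in every control library and 0 to 2 in every Rag2-/- library, and the few Rag2 counts lay in controls, as the genotype labels have it. The 10 microglia genes used below as a reference (Tmem119, P2ry12 and Csf1r among them) summed to 10901 ± 788.1 CPM (SD, n = 12) in microglia libraries. In bulk libraries, fewer cells of a type and less RNA per cell cannot be told apart.

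In microglia libraries the border macrophage genes were counted in every mouse and none was called by genotype. Together they summed to 690.2 ± 179.4 CPM (SD, n = 12). Mrc1 (ENSMUSG00000026712; chromosome 2, 14234151 to 14336926, plus strand, build GRCm39 as for all positions here) encodes the mannose receptor CD206, an endocytic lectin. It had 267, 391 and 461 CPM as the lowest, median and highest of 6 control libraries, and 241, 349 and 451 CPM in the 6 Rag2-/- libraries. The groups overlapped nearly throughout, and the fitted log2 difference, Rag2-/- minus control, was -0.17 (SE 0.15, adjusted p = 0.999, edgeR).

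F13a1 (ENSMUSG00000039109; chromosome 13, 37051152 to 37234277, minus strand), the A chain of coagulation factor XIII, had 57.7, 108 and 134 CPM in controls and 62.3, 98.7 and 136 CPM in Rag2-/- libraries. Pf4 (ENSMUSG00000029373; chromosome 5, 90918479 to 90922110, plus strand), the chemokine CXCL4, had 34.3, 115 and 162 CPM in controls and 70.5, 93.7 and 150 CPM in Rag2-/- libraries. For both genes the lowest library was a control and the ranges overlapped. The log2 differences by genotype were -0.07 (SE 0.18) and -0.21 (SE 0.26), both with an adjusted p of 0.999 in edgeR. Platelets also carry both of these transcripts, and the platelet genes in the same libraries were nearly all Gp9, which lay between 10.6 and 29.1 CPM, while Ppbp, another platelet chemokine, averaged 0.659 CPM. The part of platelets in the F13a1 and Pf4 values was not tested.

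Cd163 (ENSMUSG00000008845; chromosome 6, 124281606 to 124307560, plus strand), the scavenger receptor for haptoglobin-haemoglobin complexes, had 17.2, 39.5 and 70.6 CPM in controls and 22.4, 38.8 and 68.7 CPM in Rag2-/- libraries. Lyve1 (ENSMUSG00000030787; chromosome 7, 110448585 to 110462460, minus strand), a hyaluronan receptor, had 16.7, 40.5 and 84.2 CPM in controls and 20.6, 52.4 and 60.3 CPM in Rag2-/- libraries. Ms4a7 (ENSMUSG00000024672; chromosome 19, 11298403 to 11313510, minus strand), a membrane protein of the MS4A family, had 22.7, 47.1 and 50.7 CPM in controls and 22.7, 32.6 and 48.8 CPM in Rag2-/- libraries. The ranges of the groups overlapped for each of these genes. Their log2 differences by genotype were -0.01 (SE 0.25), 0.02 (SE 0.30) and -0.31 (SE 0.19), again with an adjusted p of 0.999 in edgeR, and Ms4a7 had the smallest unadjusted p of the 9 members tested, 0.114.

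The monocyte genes were much lower. Ccr2 (ENSMUSG00000049103; chromosome 9, 123901982 to 123913594, plus strand), the receptor for the chemokine CCL2, had 4.23, 5.07 and 7.08 CPM as the lowest, median and highest of the control libraries, and 3.30, 5.28 and 9.72 CPM in the Rag2-/- libraries. The highest and the lowest of the 12 libraries were both Rag2-/-, pairs 5 and 3, and the log2 difference was -0.03 (SE 0.30, adjusted p = 0.999, edgeR).

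Ly6c2 (ENSMUSG00000022584; chromosome 15, 74980003 to 74988467, minus strand), which encodes the GPI-anchored protein Ly6C2 and was counted too rarely to pass the filter, was the member with the largest difference by genotype. Its read pairs numbered 12, 7, 4, 20, 11 and 52 in controls 1 to 6 and 0, 8, 7, 2, 7 and 3 in Rag2-/- 1 to 6. The mean was 1.69 ± 1.19 CPM in controls and 0.431 ± 0.317 CPM in Rag2-/- libraries (SD, n = 6 each), and the ranges overlapped. The most counts lay in the Rag2+/+ controls of pairs 4 and 6. In an edgeR fit without the filter the log2 difference was -1.94 (SE 0.72), which did not pass over the 32912 genes fitted (adjusted p = 0.925), nor in DESeq2 (-1.99, adjusted p = 1.00). In the same libraries the T cell receptor gene Cd3e had 8 to 39 counts in controls and 0 in all 6 Rag2-/- libraries, and the 8 T cell genes listed summed to between 11.6 and 21.2 CPM and between 9.45 and 15.9 CPM. Their part in the Ly6c2 values was not tested.

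Ly6c2 shares much of its sequence with its neighbour Ly6c1 (ENSMUSG00000079018; chromosome 15, 74915847 to 74920686, minus strand), an endothelial gene of the brain, which limits what unique reads can count. Over their coding sequences of 393 bases (GENCODE M39 transcripts on GRCm39, without the stop codon) they differ at 9 bases and are 97.7% identical. Bases 1 to 260 of each are shown because they bear on this count, and capitals mark the 7 differences in that stretch.
Ly6c2: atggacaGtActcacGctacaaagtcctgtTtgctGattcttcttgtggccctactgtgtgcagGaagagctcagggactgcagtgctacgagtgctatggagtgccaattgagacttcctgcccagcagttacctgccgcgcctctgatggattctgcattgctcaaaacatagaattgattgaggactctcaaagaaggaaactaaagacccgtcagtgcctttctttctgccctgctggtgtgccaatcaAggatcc
Ly6c1: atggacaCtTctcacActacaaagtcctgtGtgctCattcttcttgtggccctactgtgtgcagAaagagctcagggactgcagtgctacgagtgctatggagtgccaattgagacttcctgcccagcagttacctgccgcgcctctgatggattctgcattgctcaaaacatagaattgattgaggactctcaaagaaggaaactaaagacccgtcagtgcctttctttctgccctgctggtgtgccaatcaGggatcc
The longest stretch the 2 genes share without a difference is 188 bases. Of the 50-base windows of the Ly6c2 transcript, the length of 1 read of a pair, 25.9% also occur elsewhere in the genome, at Ly6c1, Ly6a and Gm28068. For the other members this share was 2.47% in Ccr2, 0.46% in Cd163 and 0 in the remaining 7.

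The granulocyte genes were low in most microglia libraries and high in 1. S100a8 (ENSMUSG00000056054; chromosome 3, 90567118 to 90578128, plus strand) and S100a9 (ENSMUSG00000056071; chromosome 3, 90599931 to 90603071, minus strand) encode the subunits of calprotectin, a protein that binds calcium and zinc. S100a8 had 2.23, 5.75 and 7.44 CPM as the lowest, median and highest of the controls, and 1.54, 5.01 and 22.9 CPM in Rag2-/- libraries. S100a9 had 4.84, 10.3 and 15.5 CPM in controls and 3.74, 10.0 and 53.9 CPM in Rag2-/- libraries. Rag2-/- 5 was the highest for both, with 281 and 660 counts, and all other Rag2-/- libraries lay at or under 6.04 and 14.8 CPM, under the highest control. The log2 differences by genotype were 0.26 (SE 0.48) and 0.35 (SE 0.49), both with an adjusted p of 0.999 in edgeR. Without the Rag2-/- library of pair 5 they were -0.23 and -0.16.

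In that library 10 further granulocyte genes (Ngp, Camp, Ltf, Lcn2, Retnlg, Cxcr2, Mmp8, Mmp9, Elane and Mpo) summed to 49.5 CPM, against 4.39 to 27.8 CPM in the other 11 microglia libraries. Ccr2 was also highest there, while the border macrophage genes summed to 828.7 CPM, the fourth highest of 12.

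**Figure D1:**
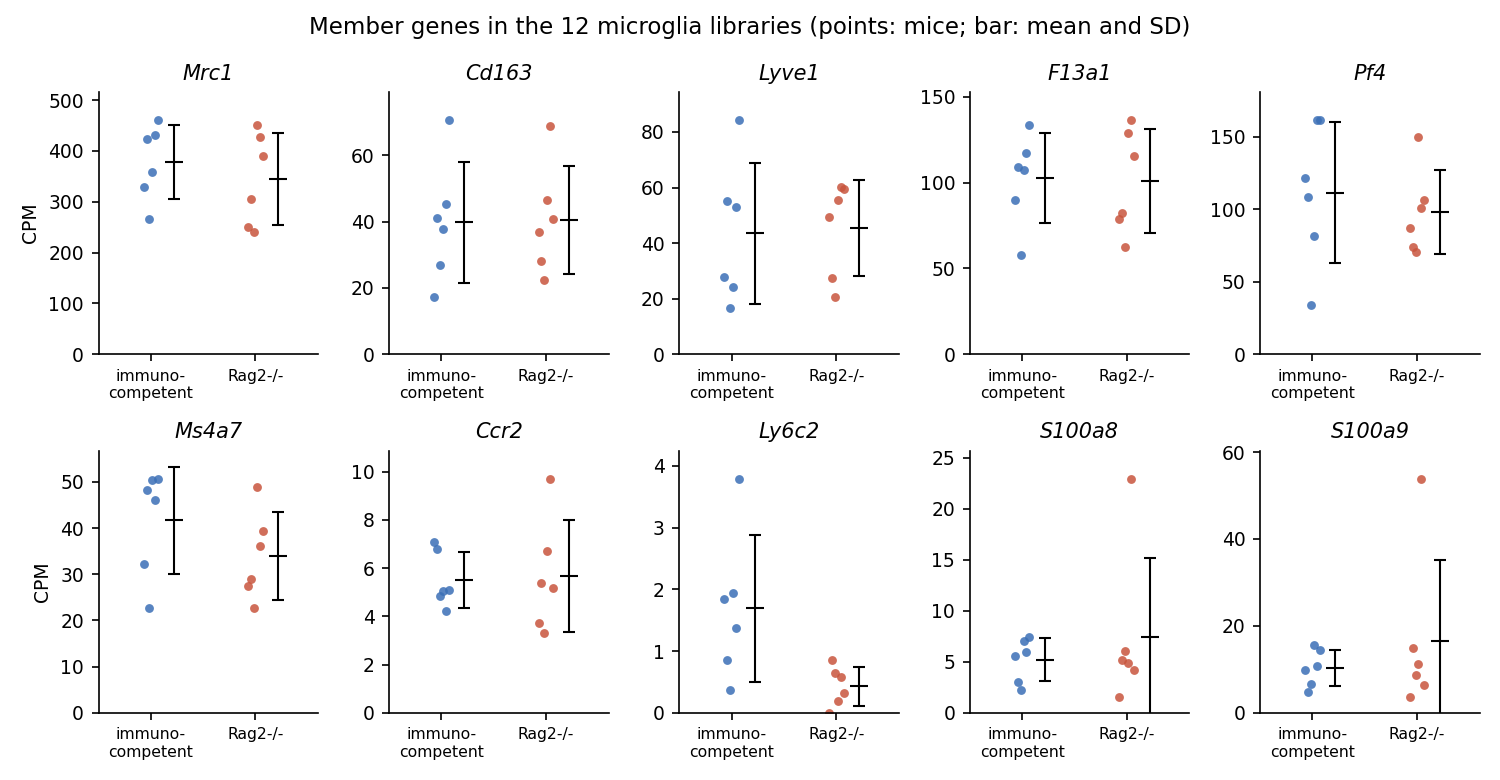
CPM of each of the 10 members (panels, each with its own linear axis) in the 12 microglia libraries, with 1 point per library by genotype (immunocompetent controls and Rag2-/-) and bars at the mean with SD, drawn from 0 upwards. Control and Rag2-/- points overlap for all members, and Rag2-/- 5 stands above the others for S100a8 (22.9 CPM) and S100a9 (53.9 CPM).

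Per kilobase of exon, counted over the exons of all transcripts of a gene, Mrc1 and Pf4 led in microglia libraries with 46.2 ± 10.3 and 42.6 ± 15.8 CPM per kb (SD, n = 12). The order below holds for these lengths alone. Single transcripts were shorter by unlike amounts, with 837 against 3056 bases in Ly6c2, 1334 against 4453 in Ms4a7 and 3954 against 6798 in F13a1. Mrc1 was above Pf4 in 7 of 12 libraries, so the order of these 2 was not fixed. F13a1 followed at 14.9 ± 3.97 CPM per kb, under Pf4 in all 12 libraries. Lyve1, S100a9, Ms4a7, Cd163 and S100a8 lay between 10.7 and 6.43 CPM per kb, where each was above the next in only 6 to 9 of 12 libraries. Ccr2 (0.826 ± 0.259 CPM per kb) was below S100a8 in all 12, with no overlap of their ranges, and Ly6c2 was lowest at 0.348 ± 0.347 CPM per kb. The spread of S100a9, 10.5 ± 10.5 CPM per kb, was as large as its mean.

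Mrc1 had at least 241.5 CPM in every microglia library. Its highest values in the libraries panned later were 52.01 CPM (OPCs), 59.98 CPM (oligodendrocytes) and 15.07 CPM (astrocytes). In a fit of all 43 libraries with the mouse as a block, all 6 border macrophage genes were higher in microglia against each other cell type. The background was 31.6% (OPCs), 34.4% (oligodendrocytes) and 34.1% (astrocytes) of 19209 genes called higher. All 6 also passed the filter within OPC and within oligodendrocyte libraries alone. Within astrocyte libraries Mrc1 alone did, so the other genes entered the tests against astrocytes through the libraries where they were high. Mrc1 was higher by 5.12 (SE 0.42) on the log2 scale against OPCs, by 3.74 (SE 0.46) against oligodendrocytes and by 6.73 (SE 0.44) against astrocytes. The largest adjusted p of these 18 edgeR tests was 4.4e-04, for Lyve1 against oligodendrocytes, and the smallest 6.316e-16, for Mrc1 against astrocytes. Ccr2, S100a8 and S100a9 had so few counts outside microglia that they passed the filter through the microglia libraries, which fixes the direction of such a test. These genes are given below as values, and their ratios tested further below rest on the same few counts.

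The border macrophage genes kept a low level in the later libraries. Mrc1 averaged 26.2 ± 21.3 CPM in oligodendrocytes (SD, n = 8), 17.4 ± 14.5 CPM in OPCs (n = 11) and 4.55 ± 5.25 CPM in astrocytes (n = 12), so its mean in microglia was 13.8-fold, 20.7-fold and 79.5-fold higher. With mitochondrial counts left out of the library size, these ratios were 7.42, 16.8 and 56.3. F13a1 averaged 10.4, 4.13 and 1.31 CPM in the same order, and Pf4 6.67, 5.16 and 0.919 CPM. Cd163, Lyve1 and Ms4a7 lay between 0.363 and 4.29 CPM on average, with several libraries at 0 counts. Where libraries were at or under 3 counts, that floor was used for them, and microglia were then at least 99.2-fold (Pf4), 88.1-fold (Lyve1) and 53.0-fold (Cd163) higher than astrocytes.

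The monocyte and granulocyte genes were at or near 0 counts there. Ccr2 had 8 counts over the 11 OPC libraries, 3 over the 8 oligodendrocyte libraries and 19 over the 12 astrocyte libraries, 14 of them in Rag2-/- 5. Ly6c2 had 3, 3 and 1 counts, S100a8 had 0, 0 and 2, and S100a9 had 2, 0 and 0. Read against the floor of 3 counts per library, S100a9 was at least 51.9-fold and 41.2-fold higher in microglia than in oligodendrocytes and astrocytes, and S100a8 at least 23.9-fold and 24.5-fold higher than in OPCs and oligodendrocytes. For totals of 1 to 3 counts the pooled ratio was 970.5 (95% interval 268 to 8020) for S100a9 against OPCs and 384 (106 to 3178) for S100a8 against astrocytes. For Ly6c2 it was 49.9 (16.7 to 245), 35.4 (11.8 to 174) and 127 (22.3 to 5039) against OPCs, oligodendrocytes and astrocytes. No molecular identifiers were used, so the floors and intervals hold counting error alone.

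**Figure D2:**
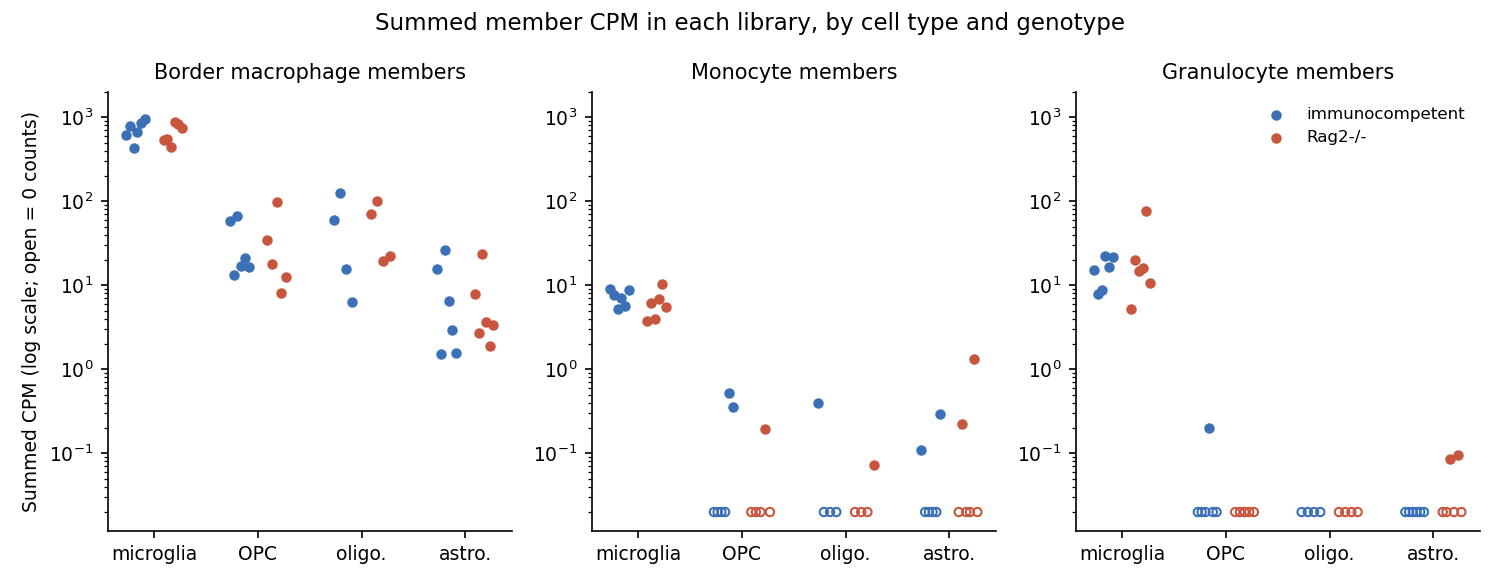
Summed CPM of the border macrophage, monocyte and granulocyte members (panels) in each library, by cell type on the x axis and genotype by colour. The y axis is on a log scale and open points are libraries with 0 counts, drawn at the bottom. Border macrophage sums average 690.2 CPM in microglia, 33.2 in OPCs, 52.5 in oligodendrocytes and 8.12 in astrocytes, while granulocyte sums outside microglia are at or near 0.

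The later cell types also differed among themselves. Against astrocytes, all 6 border macrophage genes were higher in oligodendrocytes, by 2.44 (Ms4a7, SE 0.75) to 3.60 (Lyve1, SE 0.88) on the log2 scale, with Mrc1 higher by 2.99 (SE 0.42, adjusted p = 2.267e-07), where 24.9% of genes were called higher. Of the 6, Mrc1 alone passed the filter within astrocyte libraries. Mrc1, Lyve1 and Pf4 were higher in OPCs than in astrocytes, by 1.61 (SE 0.38), 2.15 (SE 0.83) and 2.03 (SE 0.57), against 25.3% of genes. Mrc1 and F13a1 were lower in OPCs than in oligodendrocytes, by -1.38 (SE 0.41, adjusted p = 0.00718) and -1.96 (SE 0.54, adjusted p = 0.00423), where 14.9% of genes were called lower. The last 2 calls did not hold without pair 1 (adjusted p = 0.060 and 0.0654) or in control mice alone (adjusted p = 0.196 and 0.105).

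Within the later cell types pair 3, both of whose mice were male, stood out. The border macrophage genes summed to 67.4 and 98.0 CPM in OPCs of control 3 and Rag2-/- 3, 126.5 and 99.7 CPM in oligodendrocytes, and 26.2 and 23.4 CPM in astrocytes, the 2 highest libraries of each cell type. In microglia the same mice had the 2 lowest sums, 425 and 440 CPM. The microglia genes of pair 3 were highest too, with sums of 1184 and 1157 CPM in OPCs, 883 and 777 CPM in oligodendrocytes and 347 and 285 CPM in astrocytes. Across libraries of a cell type, the rank correlation of the border macrophage sum with the microglia sum was 0.50 in OPCs (n = 11), 0.595 in oligodendrocytes (n = 8), 0.643 in astrocytes (n = 12) and -0.48 in microglia (n = 12). Without pair 3 these were 0.10, 0.029, 0.38 and -0.12. Without pairs 1 and 3 they were 0.357 (n = 7), 0.20 (n = 4), 0.571 (n = 8) and -0.738 (n = 8). Both sums share each library's depth, and these correlations are given as a description.

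**Figure D3:**
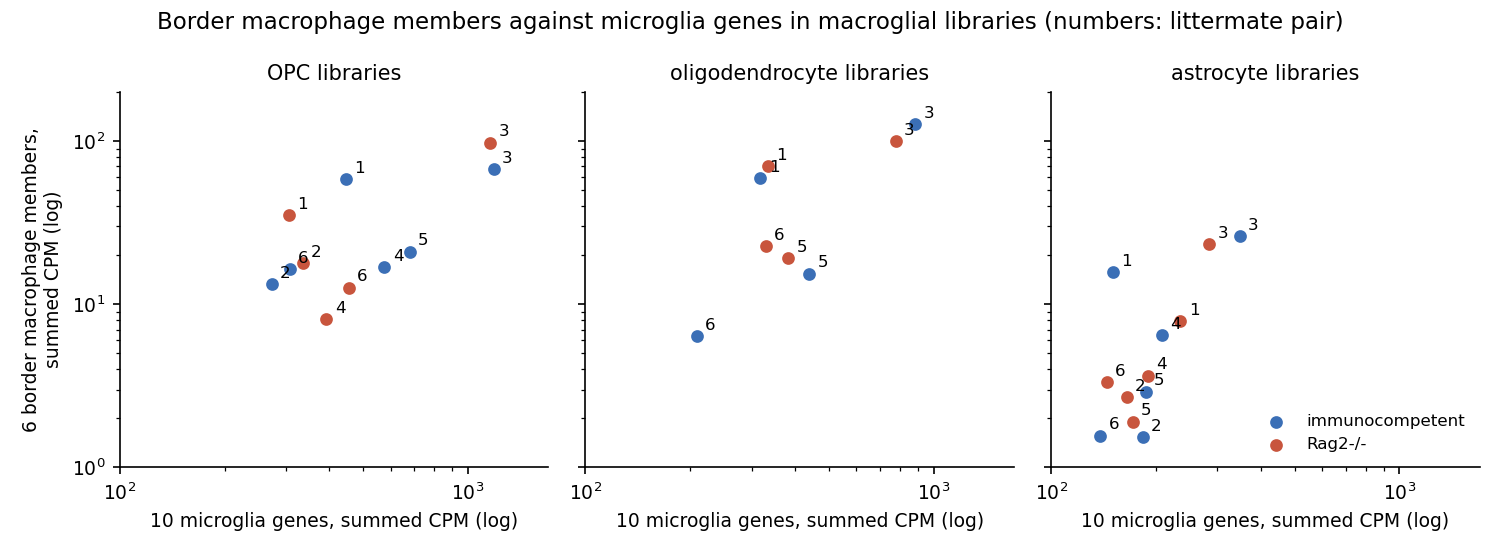
Summed CPM of the 6 border macrophage genes (y) against that of the 10 microglia genes (x) in each library, both on log scales, with 1 panel each for OPCs, oligodendrocytes and astrocytes, genotype by colour and points numbered by littermate pair. The pair 3 libraries lie at the upper right of each panel.

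Set against the microglia genes, the granulocyte genes had fewer counts in the later libraries than the ratio in microglia libraries gave. Tests over single mice, described below, called this, and tests over littermate pairs did not. The later counts are at or near 0, so these calls are no support beyond the counts given below. The border macrophage genes of OPC and oligodendrocyte libraries were not called lower. The border macrophage sum was 6.41 ± 1.90% of the microglia sum in microglia libraries (SD, n = 12), 5.92 ± 3.63% in OPCs (n = 11), 10.7 ± 7.05% in oligodendrocytes (n = 8) and 3.61 ± 3.26% in astrocytes (n = 12). The granulocyte sum was 0.183 ± 0.178% in microglia libraries, where the monocyte sum was 0.0620 ± 0.0218%.

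For each later library, the counts each member would have at the ratio measured in the microglia library of the same mouse were computed and summed. Border macrophage genes had 4505 counts in OPC libraries where that ratio gave 4176, 5016 in oligodendrocytes where it gave 2350, and 963 in astrocytes where it gave 1358. The excess in oligodendrocytes lay in pairs 1 and 3 alone. Their border macrophage sums were 12.8% to 21.1% of the microglia sum, against 3.58% to 6.41% in microglia libraries of the same mice. In pairs 5 and 6 these were 3.04% to 6.88% against 7.03% to 9.83%, under the ratio in each mouse. The granulocyte genes had 2 counts in OPC libraries where it gave 93.9, 0 in oligodendrocytes where it gave 72.2, and 2 in astrocytes where it gave 39.3. S100a8 and S100a9 were each under it in 11 of 11 OPC, 8 of 8 oligodendrocyte and 12 of 12 astrocyte libraries. Monocyte genes had 11 counts against 38.9 in OPCs, 6 against 23.03 in oligodendrocytes and 20 against 13.1 in astrocytes. Without Rag2-/- 5, left out after the data were seen, the granulocyte genes had 0 counts in oligodendrocytes against 42.6 and 1 in astrocytes against 26.3, and the monocyte genes had 6 in astrocytes against 11.3, under the ratio rather than over it.

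The ratio of each member to the microglia genes was then compared within mice by an exact two-sided permutation test, with sign flips over single mice, littermates included, a pseudocount of 0.5 and adjustment over 30 tests. S100a9 was lower in the later libraries than in microglia in all 3 cell types, by -3.01 on the log2 scale in OPCs (11 of 11 mice, adjusted p = 0.00732), -3.20 in oligodendrocytes (8 of 8 mice, adjusted p = 0.0335) and -1.78 in astrocytes (12 of 12 mice, adjusted p = 0.00732). S100a8 was lower by -2.22 (11 of 11 mice), -2.23 (8 of 8) and -0.49 (10 of 12), with adjusted p = 0.00732, 0.0335 and 0.0439. Over these libraries S100a8 had 0, 0 and 2 counts and S100a9 had 2, 0 and 0, so the pseudocount nearly sets their later ratios. Their calls are therefore a description and no support, as with Ly6c2 below. Ccr2 was lower in OPCs by -1.86 (9 of 11 mice, adjusted p = 0.0335) and in oligodendrocytes by -1.86 (7 of 8 mice, adjusted p = 0.0439). Lyve1 and Pf4 were lower in astrocytes by -1.45 (11 of 12 mice, adjusted p = 0.0403) and -2.24 (9 of 12 mice, adjusted p = 0.0439), and the other 4 border macrophage genes had adjusted p from 0.0513 to 0.0801 there, where Mrc1, Cd163 and Ms4a7 were each called lower in 1 of 8 alternatives.

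No border macrophage gene was called in this ratio in OPCs or oligodendrocytes. Mrc1 was at -0.21 ± 0.96 (SD, n = 11 mice, adjusted p = 0.581, exact test) and 0.30 ± 1.77 (SD, n = 8 mice, adjusted p = 0.678, exact test), so differences of the size of this spread between mice were not resolved. Of the 30 ratios 10 were called lower, and the share over other genes was not computed. S100a8 and S100a9 in OPCs were called in all 8 alternatives, which do not include the test over littermate pairs below. S100a9 in astrocytes was called in 6. In oligodendrocytes S100a9 was called in 4, S100a8 in 3 and Ccr2 in 0. Ccr2 in OPCs was called in 3, and Lyve1, Pf4 and S100a8 in astrocytes in 1 each. Counts of mostly 0 to 3 with a pseudocount set the later ratios of the monocyte and granulocyte genes, so the sizes and calls depend on the pseudocount. With a pseudocount of 1 the number of lower values was 3. With littermates averaged and the signs flipped over pairs, a test chosen after the data were seen, 0 were called, since p cannot fall below 0.0313 with 6 pairs and 0.125 with 4 before adjustment. The value of Ly6c2 in astrocytes, 2.23, is set by the pseudocount and says nothing of the gene.

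**Figure D4:**
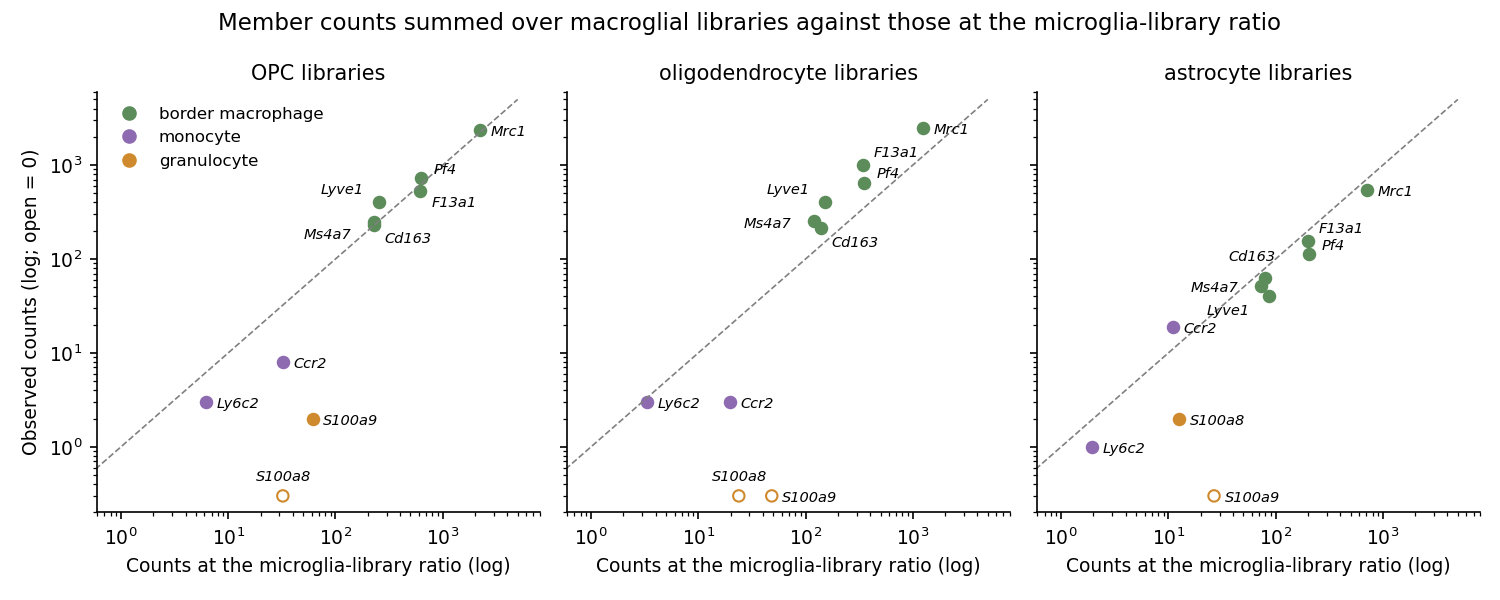
Counts of each member summed over OPC, oligodendrocyte and astrocyte libraries (y, log scale, open points at 0 counts drawn below 1) against the counts given by the ratio in the microglia library of the same mouse (x, log scale). The dashed line marks equality, and colours mark border macrophage, monocyte and granulocyte genes. Border macrophage genes lie near the line in OPCs, above it in oligodendrocytes and mostly under it in astrocytes, and S100a8 and S100a9 lie far under it in each panel. The excess in oligodendrocytes comes from littermate pairs 1 and 3.

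By genotype, 0 of the 9 members tested were called in microglia libraries, where 0.00667% of 15003 genes were (1 gene), and none had an unadjusted p under 0.05, as 2.91% of all genes did. Their median log2 difference was -0.03, against -0.0056 over all genes, and DESeq2 also called 0. In OPCs 6 members were tested and 0 called (background 0.00592% of 16882 genes, smallest unadjusted p 0.252). In oligodendrocytes 6 were tested and 0 called (0.0% of 13802 genes, smallest unadjusted p 0.348), and in astrocytes Mrc1 alone was tested (0.02, SE 0.60, background 0.00679% of 14725 genes). DESeq2 called 0 members in each of these as well. The difference between the genotype effect in microglia and that averaged over the 3 later cell types was called for 0 of the 6 border macrophage genes (background 0.00468% of 21368 genes), whose smallest unadjusted p was 0.740. The monocyte and granulocyte genes had too few counts in the later cell types for this test. In simulated counts with the means and depths of these microglia libraries, 54 of 100 genes changed by 1 on the log2 scale and 89 of 100 changed by 2 were recovered among 15003 genes.

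By sex, female minus male, 0 of 9 members were called in microglia libraries (background 0.0467%), where log2 differences ran from 0.11 to 0.70, and 0 had an unadjusted p under 0.05 (3.92% of all genes), also with 0 called by DESeq2. In the later cell types the differences of the border macrophage genes that passed the filter all ran the other way. In astrocytes Mrc1 had a lowest, median and highest value of 0.490, 3.74 and 15.1 CPM in 7 libraries of males and 0.789, 1.23 and 1.70 CPM in 5 of females. The lowest of all was a male, control 6, and 6 of 7 males were above every female. Its log2 difference was -2.47 (SE 0.64, adjusted p = 0.561, edgeR, background 0.0407%). DESeq2 called it (adjusted p = 0.0336, background 0.0535%), as did edgeR without the filter (adjusted p = 1.1e-05, background 0.351%).

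In OPCs 0 of 6 members were called (background 0.0296%) and 2 had an unadjusted p under 0.05 (4.30% of all genes), with differences from -2.41 to -0.92. Mrc1 there had 5.00, 12.9 and 52.0 CPM as the lowest, median and highest of 7 males and 5.85, 6.57, 9.84 and 14.96 CPM in the 4 females, which overlapped. Its difference was -1.26 (SE 0.50, adjusted p = 0.999, edgeR), and edgeR without the filter called it (adjusted p = 0.00399, background 0.213%). In oligodendrocytes 0 of 6 were called (background 0.0362%) and 2 had an unadjusted p under 0.05 (8.23% of all genes), with differences from -3.59 to -1.19. Pf4 had 2.34, 7.43, 10.3, 14.3 and 16.2 CPM in the 5 males and 0, 0.147 and 2.55 CPM in the 3 females, where control 6, a male, lay under the highest female. Its difference was -3.55 (SE 1.25, adjusted p = 0.505, edgeR), and DESeq2 called it (adjusted p = 0.0344, background 1.48%). Sex and littermate pair cannot be told apart except in pair 6, and both mice of pair 3, the highest in border macrophage genes, were male. Of the 10 microglia genes, 0 were called by sex in astrocytes, with a median log2 difference of -0.60. The 3 with an unadjusted p under 0.05 were Tmem119 (-0.95, SE 0.40), P2ry12 (-0.83, SE 0.25) and Csf1r (-1.003, SE 0.30), and edgeR gave the 3 an adjusted p of 0.716. The median of the microglia genes was -0.54 in OPCs and -0.07 in oligodendrocytes, where that of the border macrophage genes was -2.65. Genes of other glia differed as well, with a median of -0.98 for 6 OPC genes in astrocytes (4 with an unadjusted p under 0.05) and 1.20 for 6 oligodendrocyte genes in OPCs (5 with an unadjusted p under 0.05). The part of these genes in the values of the members was not tested.

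A test of the difference between the sex effect in microglia and the mean sex effect in the other cell types, chosen after the data were seen, called 0 of 21368 genes, with 1337 (6.26%) at an unadjusted p under 0.05 (background 0.0% called). For Mrc1 the difference was 1.40 (SE 0.58, adjusted p = 0.715, edgeR), and without pair 3 it was 0.74 (SE 0.56).

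Over the 12 microglia libraries the border macrophage genes varied together and the granulocyte genes varied together. Of 45 pairs of members, 13 had a correlation of log2(CPM + 1) with an adjusted p under 0.05 in permutation tests, 12 of the 15 pairs of border macrophage genes and the pair S100a8 and S100a9. The share over all pairs of genes was not computed. Genes outside the list reached r = 0.912 with Mrc1 (Cybb), so such correlation is not shown to be particular to the members. Of the border macrophage genes, Mrc1 and F13a1 were most alike, with r = 0.94 and rho = 0.93 (permutation p = 2e-05 and 4e-05, adjusted p = 0.0009 and 0.0018, n = 12), and r = 0.953 without the 2 libraries farthest from the median. S100a8 and S100a9 had r = 0.948 and rho = 0.811 (permutation p = 5e-05 and 0.00204, adjusted p = 0.00112 and 0.0115), and r = 0.798 without 2 libraries. Between border macrophage and granulocyte genes the median r was 0.369 and 0 of 12 pairs passed, and between border macrophage and monocyte genes it was 0.342 and 0 of 12 passed. Ccr2 and Ly6c2 had r = 0.0693 and rho = 0.0979 (permutation p = 0.831 and 0.765, adjusted p = 0.831 and 0.803).

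**Figure D5:**
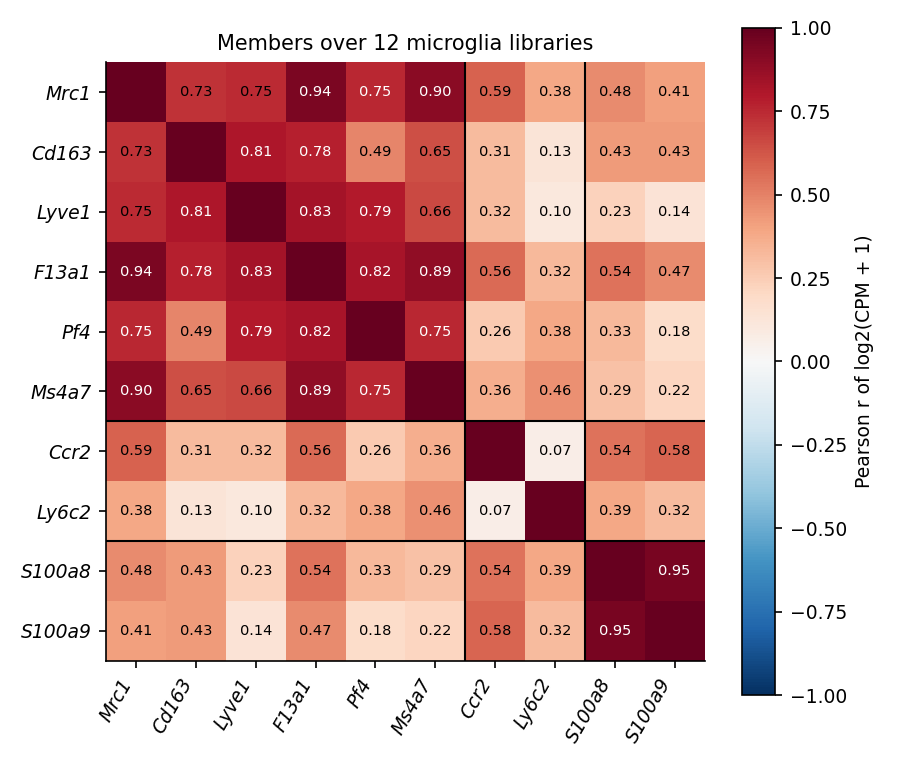
Pearson r of log2(CPM + 1) between each pair of members over the 12 microglia libraries, printed in each cell and shown by colour from -1 to 1. The block of the 6 border macrophage genes holds values from 0.485 to 0.940, and S100a8 with S100a9 reaches 0.948.

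The promoters of S100a8 and S100a9, whose levels moved together, are shown as the 250 bases before the start of the canonical GENCODE M39 transcript on GRCm39, read 5′ to 3′ on the strand of the gene. They lie at chr3:90576035-90576284 (plus strand) and chr3:90603072-90603321 (minus strand). Capitals mark matches on either strand to GAGGAA, the core bound by the myeloid factor PU.1, and to TTNNGNAA, a pattern of C/EBP sites.
S100a8: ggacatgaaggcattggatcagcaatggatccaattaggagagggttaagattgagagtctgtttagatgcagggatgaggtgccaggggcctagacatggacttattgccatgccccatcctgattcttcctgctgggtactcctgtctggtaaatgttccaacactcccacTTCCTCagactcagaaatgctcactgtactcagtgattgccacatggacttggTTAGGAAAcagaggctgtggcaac
S100a9: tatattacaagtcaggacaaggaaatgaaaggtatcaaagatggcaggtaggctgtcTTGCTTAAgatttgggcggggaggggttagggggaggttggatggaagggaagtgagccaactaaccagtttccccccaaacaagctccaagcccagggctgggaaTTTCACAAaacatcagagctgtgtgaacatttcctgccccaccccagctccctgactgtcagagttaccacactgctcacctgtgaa
S100a8 has 1 match of each pattern and S100a9 has 2 of TTNNGNAA. GAGGAA occurs in 3 of the 10 member promoters and in 22.9% of 21770 promoters of the same length, and TTNNGNAA in 7 of 10 and 36.9%. These matches describe the letters alone.

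Among genes outside the list, those most like Mrc1 over the 12 microglia libraries by Pearson r of log2(CPM + 1) were Cybb (0.912), Clec12a (0.898), Ifi207 (0.896), Filip1l (0.895) and Cd38 (0.895), of 15003 genes. The nearest to Ccr2 were Med10 (0.834), Mctp1 (0.833), Ndufaf6 (0.832), Gm37780 (0.823) and Cd300ld (0.818). The nearest to S100a8 were Gm3764 (0.853), Dgki (0.838), Disp2 (0.806), Ugt8a (0.805) and Tmem106c (0.799). The values are over libraries of both genotypes and share their depth. They are the highest of 15003 genes over 12 libraries and were not tested against chance. Dgki and Ugt8a averaged only 1.69 and 1.89 CPM.

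Further genes of the same cells were read from lists. The 10 other border macrophage genes summed to 614.4 ± 120.7 CPM (SD, n = 12) in microglia libraries, led by Dab2 (277 CPM), Stab1 (210 CPM), Cbr2 (47.0 CPM) and Ccl24 (20.2 CPM). Dab2 and Stab1 made most of this sum, and Folr2, the lowest of the 10, averaged 0.338 CPM. The sum of the 10 genes was 96.3 CPM in OPCs, 43.8 CPM in oligodendrocytes and 18.7 CPM in astrocytes. By genotype, 0 of the 9 that passed the filter in microglia libraries were called. The 10 other granulocyte genes summed to 15.2 ± 12.6 CPM in microglia libraries, against 0.866, 1.11 and 0.336 CPM in OPCs, oligodendrocytes and astrocytes, and were led by Ngp, a neutrophil granule protein (5.23 CPM), and Lcn2 (2.18 CPM), and 0 of the 5 that passed the filter in microglia libraries were called by genotype. The sum of the 10 other monocyte genes was 25.5 ± 12.3 CPM in microglia libraries and ran from 974 to 1564 CPM in OPCs. This sum went the other way from Ccr2 and Ly6c2, but the list did not as a set. Of the 4 genes tested in microglia against OPCs, 2 were called higher (background 31.6% of genes) and 2 lower. Within OPC libraries alone 2 of the 10 passed the filter. In microglia libraries the list was led by Vcan (7.75 CPM) and Itgal (7.73 CPM), and the reason for the sum in OPCs was not tested.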

How the data were processed

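RNA from immunopanned microglia, OPCs, oligodendrocytes and astrocytes was amplified (Nugen Ovation V2) and sequenced by the authors as read pairs. The authors aligned them with STAR 2.7.8a to GRCm39 and deposited raw counts per gene made with HTSeq. The strand setting and the treatment of reads that fit several places are not given in the sources used here. Such reads bear on Ly6c2. Lines that name no gene took 33.5% to 52.0% of all counts and were left out. Of 55416 gene IDs, 54749 were named by the GENCODE M39 annotation. Groups came from the labels. Depth was 6499417 to 23118497 counts. Libraries of a group differed by more than counting noise, with a chi-square per gene of at least 8.18, so none was counted as a copy.

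Counts were tested with edgeR 4.0.16 in R 4.3.3 (TMM, filterByExpr, quasi-likelihood, sex and genotype as terms, adjusted p under 0.05 over all genes tested). Cell types were compared over all libraries with the mouse as a block. DESeq2 1.42.0, no filter, other library sizes, other models and leaving out each library were alternatives. Ratios were tested by exact sign flips over mice in Python 3.11.15 with scipy 1.17.1. Tests were tried on simulated data first. The pair number marks littermates. The mean correlation of deviations was 0.0865, 0.0889, 0.111 and 0.135 within pairs in microglia, OPCs, oligodendrocytes and astrocytes, against -0.018, -0.018, -0.036 and -0.026 between pairs.

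Besides the 10 genes, 18 lists of cell type genes were read, and items withheld for evaluation are not reported here. The members and lists were chosen with earlier results of these data known. Named from other lists were at most the 4 genes of highest mean CPM in microglia libraries, and Folr2 as the lowest of its list. Cd3e, Tmem119, P2ry12 and Csf1r by sex, and Ppbp and Folr2, were named beside a result after their values were seen.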

Additional observations from a re-analysis of the deposited data

Results flagged for a closer look

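Of 58 sets of 4 to 6 libraries (a member in a group of 1 cell type and genotype), 14 (24.1%) had 1 library far from the others by Dixon's criterion, and 9 of the 14 libraries belonged to pair 3. Chance meets this criterion in about 1 of 20 independent sets of normally distributed values. These sets share libraries and hold CPM on a linear scale, and each flagged library was the highest of its set. The share of 24.1% is therefore a description and no test. In OPCs, Rag2-/- 3 had 52.0 CPM of Mrc1 (nearest other library 12.9 CPM), 20.5 CPM of Pf4 (nearest 3.48 CPM) and 13.1 CPM of F13a1 (nearest 3.02 CPM). Control 3 had 13.4 CPM of F13a1 (nearest 3.19 CPM) and 7.08 CPM of Cd163 (nearest 2.30 CPM). In oligodendrocytes Ms4a7 reached 10.4 CPM in control 3 (nearest 1.66 CPM) and 8.24 CPM in Rag2-/- 3 (nearest 0.937 CPM). In astrocytes Rag2-/- 3 had 15.1 CPM of Mrc1 (nearest 3.36 CPM) and control 3 had 3.28 CPM of Pf4 (nearest 0.771 CPM).

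The other 5 were Ms4a7 in OPCs of control 1 (5.195 CPM, nearest 1.72 CPM), Lyve1 in astrocytes of control 4 (1.87 CPM, nearest 0.686 CPM), Ccr2 in astrocytes of Rag2-/- 5 (1.34 CPM, nearest 0.226 CPM), and in microglia of Rag2-/- 5 S100a8 (22.9 CPM, nearest 6.04 CPM) and S100a9 (53.9 CPM, nearest 14.8 CPM). The astrocyte and microglia libraries of Rag2-/- 5 come from the same mouse.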

How the results depend on the processing

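The 18 differences of single border macrophage genes between microglia and another cell type kept their direction and call in all 216 alternatives, and the counts of members called by genotype stayed at 0 in all 75. With the littermate pair as a block the genotype count was also 0 in every cell type. By sex, the count in OPCs was 1 without the filter, in oligodendrocytes 1 in DESeq2, and in astrocytes 1 without the filter and 1 in DESeq2. The count for OPCs against oligodendrocytes was 0 in control mice alone and 0 to 2 when each pair was left out (0 without pair 1), and that for OPCs against astrocytes was 5 in DESeq2. Of the 10 lower ratios, 3 were called with a pseudocount of 1, 5 against Tmem119 alone, 0 with sign flips over littermate pairs, and 3 to 7 when each pair was left out, where fewer mice also raise the smallest p that sign flips can give. With the library size taken without mitochondrial genes, the border macrophage sum in oligodendrocytes was 107 CPM on average in place of 52.5 CPM.

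No genotype difference that changed sign was called in any fit. In microglia Cd163 was 0.047 without the sex term, 0.074 with the pair as a block and 0.37 with Rag2+/- controls alone, where F13a1 was 0.094. Ccr2 was 0.046 without the sex term and 0.0019 with the pair as a block. Mrc1 was -0.32 with the pair as a block and -0.28 with Rag2+/- controls alone in OPCs, and in astrocytes -0.20 without the sex term, -0.19 with the block and -0.45 with Rag2+/- controls alone. Leaving out 1 library gave ranges in microglia of -0.17 to 0.27 (Cd163), -0.14 to 0.40 (Lyve1), -0.21 to 0.046 (F13a1), -0.20 to 0.13 (Ccr2), -0.23 to 0.59 (S100a8) and -0.16 to 0.70 (S100a9). For Mrc1 they were -0.78 to 0.29 in OPCs, -0.081 to 0.82 in oligodendrocytes and -0.68 to 0.41 in astrocytes. The causes were not tested. Ly6c2 in microglia, and the monocyte and granulocyte genes elsewhere, are limited by depth. Expected counts against Tmem119 or P2ry12 alone, chosen after the data were seen, gave border macrophage counts of 1.35 and 0.972 times those expected in OPCs, 2.76 and 1.53 in oligodendrocytes, and 1.35 and 0.622 in astrocytes, and granulocyte counts of at most 0.0903 times.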

Other observations

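Genes of other blood and immune cells were also read in the 12 microglia libraries, as summed CPM with SD. The B cell genes summed to 360.0 ± 45.4 CPM, of which Ighm, the heavy chain of IgM, made 352 CPM. Ighm averaged 347 ± 28.7 CPM in Rag2-/- libraries, whose mice form no mature B cells, and 357 ± 60.3 CPM in controls (n = 6 each). The dendritic cell genes summed to 167 ± 20.6 CPM, led by Zbtb46 (93.6 CPM) and Ccr7 (44.4 CPM). The T cell genes summed to 14.6 ± 3.87 CPM, led by Cd5 (10.03 ± 3.703 CPM in Rag2-/- and 8.52 ± 2.65 CPM in control libraries). The NK cell genes summed to 4.22 ± 2.62 CPM, and the mast cell genes to 4.16 ± 4.48 CPM, of which Hdc, histidine decarboxylase, made 3.83 CPM. The platelet genes summed to 24.6 ± 5.80 CPM, and the red cell genes to 105 ± 115 CPM, led by Hbb-bs (82.2 CPM).

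Genes of the other cells of the brain were low in the same libraries. The astrocyte genes summed to 103.7 CPM (Slc1a3 89.7 CPM), the neuron genes to 84.0 CPM (Snap25 45.6 CPM), the oligodendrocyte genes to 60.9 CPM (Cnp 34.6 CPM) and the OPC genes to 25.6 CPM (Pdgfra 11.7 CPM). The endothelial genes summed to 35.6 CPM (Pecam1 16.3 CPM), the mural cell and fibroblast genes to 31.3 CPM (Rgs5 22.7 CPM) and the choroid plexus genes to 2.37 CPM (Kcnj13 1.70 CPM). No gene of any list that passed the filter was called by genotype or sex in microglia libraries. Without the filter Cd3e and Igkc, of the T and B cell lists, were called by genotype.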
